A study of Mus musculus with 12 samples.

Results

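The genes examined here encode synaptic receptors, postsynaptic scaffolds, adhesion proteins of the synapse and the machinery of vesicle release. They were taken by symbol, as the protein-coding mouse genes of the Gria, Grik, Grin, Grm, Gabr, Nlgn, Nrxn, Rims, Syt, Dlg, Shank, Snap, Stx, Syn1 to Syn3 and Vamp families, without the Stxbp genes. This gave 109 genes among 21900 protein-coding genes of the RefSeq assembly GRCm38.p6. The families were named by symbol and not by function, so the set also holds relatives that act in other membrane traffic, such as Stx5a at the Golgi, and Snap91, which encodes a clathrin adaptor rather than a fusion protein.

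RNA contacts of 3 Flag-tagged proteins were mapped in N2A cells, a mouse neuroblastoma line, by individual-nucleotide resolution crosslinking and immunoprecipitation (iCLIP). The proteins were Puf60 including exon 5, Puf60 lacking exon 5, and Rbm38, each with 3 CLIP libraries and 1 size-matched input, which is RNA of the same size range taken from the lysate before the immunoprecipitation. All 12 samples came from cells given 1 µg/ml doxycycline and 150 mJ/cm2 of ultraviolet light. The CLIP libraries of Puf60 with exon 5 had 48 h of doxycycline, and those of Puf60 without exon 5 and of Rbm38 had 24 h, as did all 3 inputs, including the input of Puf60 with exon 5. Wherever the Puf60 tables are compared, isoform and length of induction cannot be told apart. For Puf60 with exon 5, CLIP over input and the comparison with Rbm38 cannot be told apart from length of induction either. Each tagged protein was encoded by a doxycycline-controlled transgene placed in N2A cells with the Flp-in system, and not by the endogenous gene. The sample titles number the CLIP libraries of each protein BR1 to BR3 without spelling out BR, and the sources used here do not describe separate cultures or say whether a line was 1 clone.

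Puf60, a relative of the splicing factor U2af2, binds pyrimidine-rich RNA near 3′ splice sites. Rbm38 is an RNA-binding protein known for contacts in 3′ untranslated regions and for effects on mRNA stability and splicing. Release of transmitter rests on the SNARE complex, in which a Vamp protein on the vesicle pairs with a syntaxin and Snap25 on the plasma membrane, with synaptotagmins as calcium sensors and Rims proteins holding vesicles and calcium channels at the active zone. On the receiving side, AMPA, kainate and NMDA receptors pass the fast glutamate signal, GABA-A receptors the inhibitory one, and Dlg and Shank scaffolds hold receptors in place opposite neurexin and neuroligin pairs. Many of these transcripts are long and heavily spliced in neurons.

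The values are the authors' own. Each protein had 1 deposited table of clusters, which are short genomic intervals with reads, and for each cluster 1 log2 fold of CLIP over input with its p-value, plain and adjusted. A cluster is called enriched here where the authors' adjusted p was under 0.05, and every enriched cluster in these genes had a log2 fold above 0. Each table gives 1 value per cluster and none per library. Depth and replicate spread behind a cluster are therefore unknown, and no test over replicates was made. Clusters of 1 gene share a transcript and are not replicates. Intervals given for shares are 95% Wilson intervals and cover counting error only.

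Clusters were placed on the gene's strand, which was given by RefSeq for 77 of the genes, inferred from the clusters themselves for 9, among them Snap25, Rims2, Vamp2, Syt4 and Nrxn2, and unknown for 23. In the 9 genes the strand is by construction the one that most of their clusters lay on. Unless stated otherwise, the counts below are of clusters on the gene's strand in the 86 genes of known strand. Among protein-coding genes with a RefSeq strand, 93.9%, 94.2% and 94.7% of the clusters of Puf60 with exon 5, Puf60 without exon 5 and Rbm38 that lay in 1 gene alone were on its strand. Exon and intron structure was not analysed here, so positions are given as the distance of a cluster's centre from the annotated end of the gene. As a check of the cell line, clusters of any strand were present in 5 of 10 sympathetic neuroblast genes, Gata3, Hand2, Insm1 and Phox2a among them, and absent from the rest, which include Th, Dbh, Ddc and Isl1. They were also listed in 4 of 5 astrocyte, 2 of 5 oligodendrocyte, 1 of 5 microglia and 2 of 5 cortical neuron genes. On the known strand of those genes, Slc1a3 held 1 cluster, not enriched, Neurod6 held an enriched cluster of each Puf60 isoform, and the oligodendrocyte and microglia lists held 0. Of the neuroblast list, 4 genes held clusters on their known strand, and Gata3 was not among them. The check on any strand thus did not set the neuroblast genes apart from the astrocyte genes. The same share over all protein-coding genes is not given here.

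Among the genes, Grik5, which encodes a kainate receptor subunit, is the one with RefSeq bases to show under enriched clusters of all 3 proteins, so the first bases of 2 of its clusters are printed here. Both sites lie around a start given by RefSeq, on the minus strand of chromosome 7 in GRCm38.p6. This start lies inside the annotated gene body, and the cluster centres are 3183 and 3408 nt from the 5′ end of that body. Upstream therefore means before this start and not before the gene. Each sequence is the first 30 bases of a cluster, read 5′ to 3′ on the gene's strand. The capitals mark runs of at least 6 bases that are all C or T.
Grik5 upstream, chr7:25072506-25072535: agcaggCCCTCCCCTCCCCCaCTTCCCCCC
Grik5 at the start, chr7:25072356-25072385: ctgtgCCCCCCTCCCTTCCgttttcacctt
The upstream stretch lies 166 to 137 bases before that RefSeq start and is 80% pyrimidine, with a longest run of 14 bases. The stretch at the start begins 16 bases before it, is 86.7% pyrimidine and also holds a run of 14 bases. At the same place of 32851 RefSeq promoter windows, the median was 50% pyrimidine, and 1.81% and 0.566% of windows reached the share of the upstream stretch and of the stretch at the start. A pyrimidine run of that length was present in 1.11% and 1.42% of those windows. The share of C and T describes these letters only and does not show which bases were contacted. These sites were chosen after their values were seen, and of the 107 promoter windows of 77 of these genes, which hold 250 bases before and 50 after a start, enriched clusters on the gene's strand touched those of Grik5 in all 3 tables and 1 other, that of Dlg4, for Puf60 without exon 5.

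The cluster that begins with the second sequence, chr7:25072186-25072385, had log2 folds of 4.83 for Puf60 with exon 5, 5.32 for Puf60 without exon 5 and 2.63 for Rbm38 in the authors' deposited tables. That of the first, chr7:25072486-25072535, stood at 4.18 for Puf60 with exon 5 and 2.31 for Rbm38 in the authors' deposited tables, and the table of Puf60 without exon 5 listed no cluster there. All 5 of these values were enriched, and at both sites the Rbm38 value was the lowest of those listed.

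The genes held 324 listed clusters for Puf60 with exon 5, 311 for Puf60 without exon 5 and 401 for Rbm38. Of these, 139 (42.9%, interval 37.6 to 48.3), 125 (40.2%, 34.9 to 45.7) and 192 (47.9%, 43.0 to 52.8) were enriched over input. The background was 39.4%, 36.4% and 51.9% of all clusters on the strand of protein-coding genes, and 39.1%, 36.1% and 50.9% of all clusters of the 3 tables. The share of the synaptic genes was thus near the background in each table, and each interval held the background of protein-coding genes. Clusters below input were also listed, with a log2 fold under -1 at 45 (13.9%), 43 (13.8%) and 14 (3.49%) clusters in the authors' deposited tables. At 23, 8 and 43 clusters a stated p under 0.05 stood beside an adjusted p of 1, and these were not counted as enriched. Enriched clusters had a median width of 50 nt in each table and reached 600, 350 and 700 nt. In the 77 genes with a RefSeq strand alone, the enriched counts were 70, 73 and 110.

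Counted by gene, 33 of the 86 (38.4%) held an enriched cluster of Puf60 with exon 5, 35 (40.7%) one of Puf60 without exon 5 and 37 (43.0%) one of Rbm38. Over the 18241 protein-coding genes of known strand, the shares were 18.5%, 18.6% and 27.8%. Of the 86, 9 had a known strand only because they held clusters, and each of these held an enriched cluster of Puf60 with exon 5. The 23 genes of unknown strand, 11 of them without any cluster, are left out. The background was counted by the same rules, and gene shares over RefSeq strands alone were not computed. The synaptic genes were also long, with a median of 61602 nt against 17146 nt over all protein-coding genes, and the part of gene length and of expression in these shares was not tested. Enriched clusters had a median log2 fold of 3.27 for Puf60 with exon 5, 3.56 for Puf60 without exon 5 and 2.22 for Rbm38, in the authors' deposited tables. Over all enriched clusters of the authors' deposited tables, the medians were 2.89, 2.80 and 2.33 in that order. The Puf60 medians of the synaptic genes thus lay above those of the whole tables, and the Rbm38 median slightly below.

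A few genes carried a large share of the enriched clusters. The 3 genes with the most enriched clusters held 48.9%, 38.4% and 34.4% of them in the 3 tables, and 17, 14 and 14 genes held 1 enriched cluster each. Rims2 alone, a long gene for an active zone scaffold, held 43 of 139, 20 of 125 and 21 of 192. Without Rims2, the enriched counts were 96 of 221 (43.4%), 105 of 236 (44.5%) and 171 of 344 (49.7%), so the order of the Puf60 isoforms by enriched count turned.

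**Figure D1:**
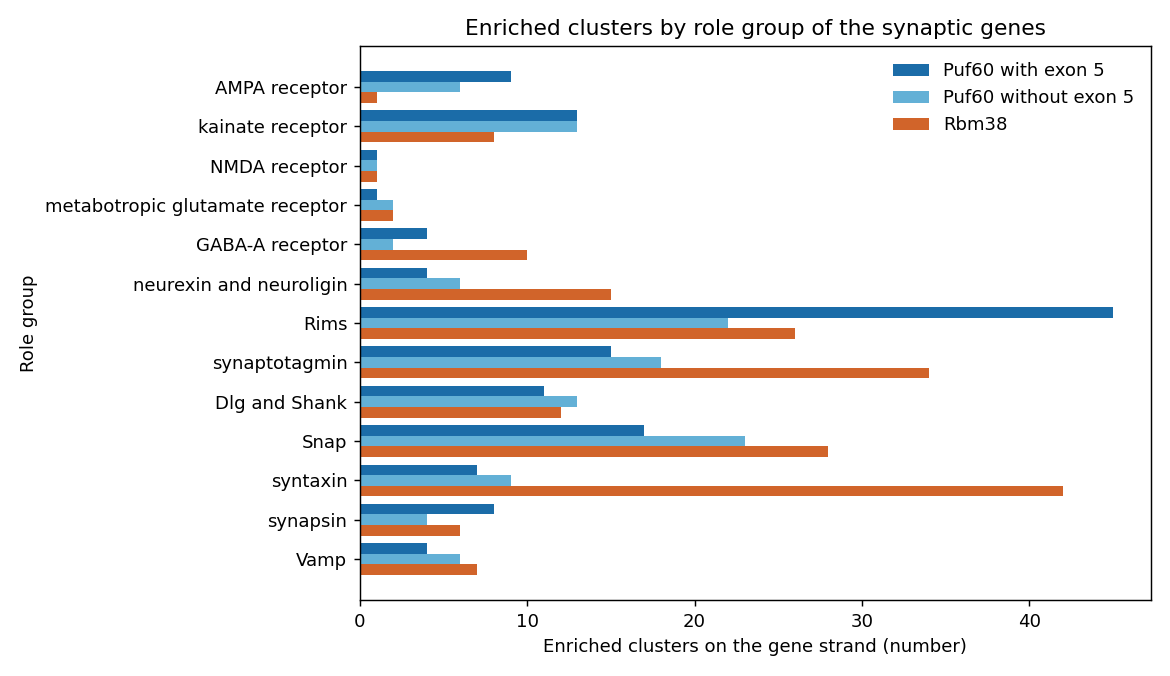
Number of enriched clusters on the gene's strand (x axis) in each role group of the synaptic genes (y axis), with 1 bar per protein. Rims genes led for Puf60 with exon 5 (45 clusters), and syntaxin genes for Rbm38 (42 clusters).

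The proteins met in many of the same genes but often at different places, the latter much as over all protein-coding genes. Across the tables, 49 genes held an enriched cluster of at least 1 protein, and 22 held enriched clusters of all 3, among them Gria2, Grik2, Grik4, Grik5, Grin1, Nrxn2, Rims2, Rims3, Syt1, Syt4, Syt6, Syt7, Dlg2, Dlg4, Snap25, Snap91, Stx12, Stx16, Stx4a, Syn2 and Vamp2. A further 8 had enriched clusters of both Puf60 isoforms and not of Rbm38, among them Gabrg3, Gria4, Stx11, Stx8, Syt14, Vamp4 and Vamp5. Rbm38 alone was enriched in 11 genes: Gabra2, Gabra3, Grm3, Grm8, Nlgn1, Snap47, Stx1a, Stx2, Stx5a, Stx6 and Stx7. Of the rest, Gabrb1 was enriched for Puf60 with exon 5 only, Dlg5, Stx18 and Syn1 for Puf60 without exon 5 only, Nlgn2 was among those enriched for Puf60 with exon 5 and Rbm38, and Snap23 and Syt11 were enriched for Puf60 without exon 5 and Rbm38. Dlg1 and Syt3 were listed and enriched for no protein, and 35 genes of known strand had no cluster on it. As a share of the 86 genes of known strand, 57% were enriched for at least 1 protein, against 34% of all protein-coding genes of known strand. For all 3 proteins the share was 25.6%, for both Puf60 isoforms and not Rbm38 9.3%, and for Rbm38 alone 12.8%. Over all protein-coding genes of known strand these shares were 11.6%, 3.79% and 12.4%. For genes listed but not enriched, or without a cluster, the share over all genes is not given here. The share enriched for Rbm38 alone was thus near the background. These 86 again include the 9 genes whose strand was inferred from their own clusters. Each of the smaller classes held 1 to 3 of these genes. Over all protein-coding genes they came to 1.2% for Puf60 with exon 5 only, 1.24% for Puf60 without exon 5 only, 1.91% for Puf60 with exon 5 and Rbm38, and 1.98% for Puf60 without exon 5 and Rbm38. Past the threshold in 1 table and not in another is not a test of a difference between them.

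In 11 of the 22 genes enriched for all 3 proteins, some place held overlapping enriched clusters of both Puf60 isoforms and Rbm38, and in the other 11 no enriched Rbm38 cluster overlapped an enriched Puf60 cluster. The first 11 were Dlg4, Gria2, Grik5, Grin1, Nrxn2, Rims2, Snap25, Snap91, Stx12, Syt6 and Vamp2. Those without such an overlap included Dlg2, Grik2, Grik4, Rims3, Stx16, Stx4a, Syn2, Syt1, Syt4 and Syt7. Of the 2112 protein-coding genes enriched for all 3 proteins, 37.3% held a place shared by all 3, and 49.2% one shared by Rbm38 and either isoform. The 11 of 22 synaptic genes (50%) were thus near the background for a place shared with either isoform.

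**Figure D2:**
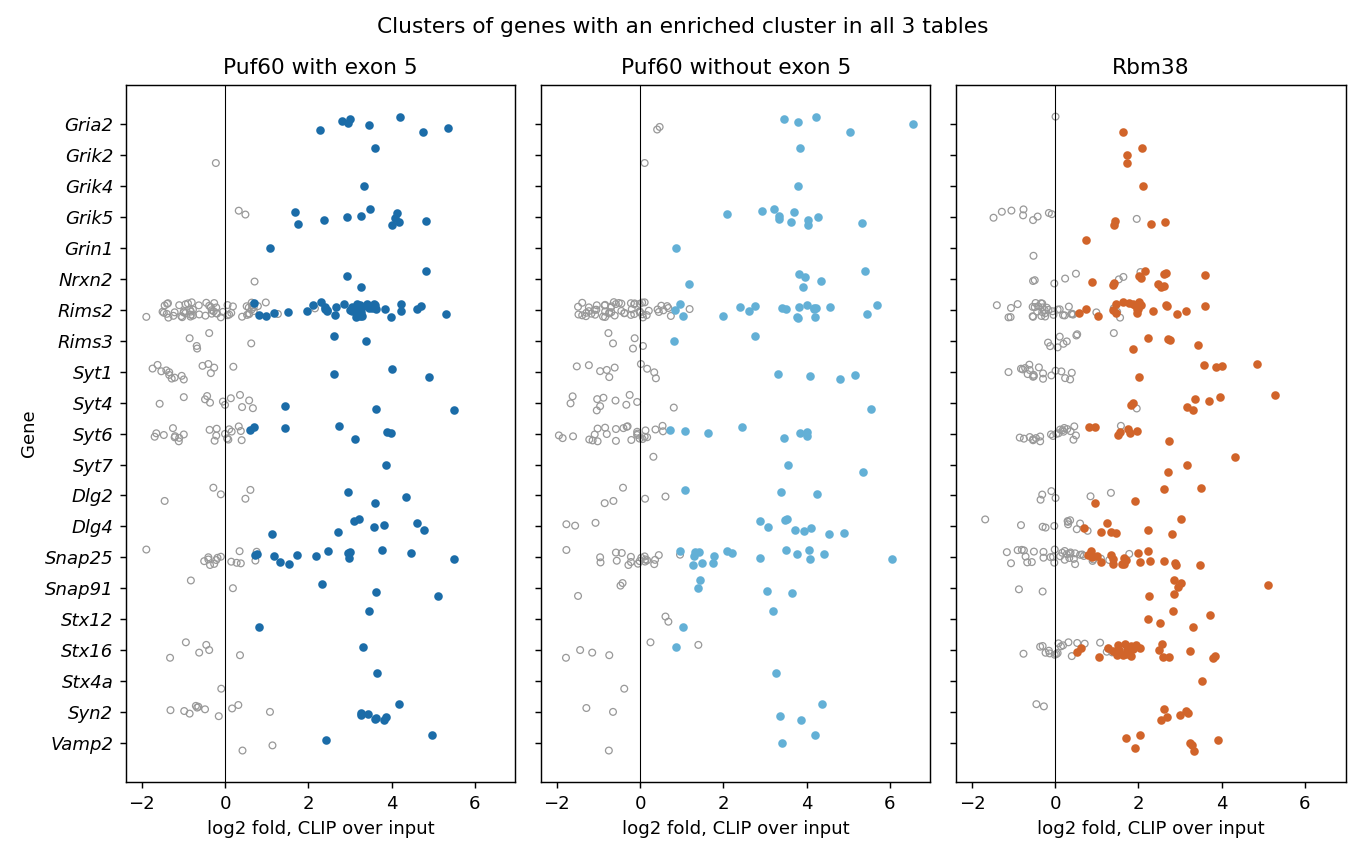
The log2 fold of CLIP over input (x axis, the authors' deposited values) of every cluster on the gene's strand in 21 of the 22 genes with enriched clusters of all 3 proteins (y axis, spread vertically within a gene for display), with filled points enriched and open grey points not. Rims2 has the most points in each panel, and the highest value is that of Gria2 for Puf60 without exon 5 (6.55).

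Among AMPA receptor genes, the Puf60 isoforms had 9 of 9 and 6 of 8 clusters enriched and Rbm38 1 of 2. Gria2 encodes the subunit that limits calcium entry through the receptor and held most of them, with 8 of 8 enriched for Puf60 with exon 5, 5 of 7 without exon 5 and 1 of 2 for Rbm38. Its leading site, chr3:80705336-80705485, had log2 folds of 5.35 with exon 5 and 6.55 without it, per the authors' deposited tables, the second being the highest of any enriched cluster in these genes. Within that interval, Rbm38 had a 50-nt cluster at 1.63 in the authors' deposited table. In Gria4, both isoforms had a single cluster at chr9:4795436-4795485, at 3.96 with exon 5 and 3.91 without it, per the authors' deposited tables, and Rbm38 had none listed. No cluster of either strand was listed in Gria1. The strand of Gria3 was unknown, and it held 1 enriched cluster of each isoform at chrX:41401051-41401200, at 5.08 with exon 5 and 5.40 without it, per the authors' deposited tables.

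Kainate receptor genes had 13 of 16, 13 of 14 and 8 of 18 clusters enriched in the tables of Puf60 with exon 5, Puf60 without exon 5 and Rbm38. Grik5 (chr7:25009849-25075694, minus strand) held 11 of 13, 11 of 11 and 4 of 14. All its enriched Rbm38 clusters lay 62061 to 62886 nt from the gene's end, in the region of the printed bases, while its other 10 Rbm38 clusters ranged from -1.48 to 1.96 in the authors' deposited table and were not enriched. Puf60 was also enriched further along the gene, for example at chr7:25060786-25060885, at 4.12 with exon 5 and 3.70 without it, per the authors' deposited tables. In Grik2 and Grik4 each protein had an enriched cluster near the end, and those of Rbm38 did not overlap those of Puf60. The Grik4 clusters lay 2128 nt from the end for both Puf60 isoforms, at 3.33 with exon 5 and 3.80 without exon 5, and 1428 nt from the end for Rbm38, at 2.12, in the authors' deposited tables. The Grik2 clusters nearest the end lay 2830 nt from it at 3.61 with exon 5, 2855 nt at 3.85 without exon 5 and 3030 nt at 2.09 for Rbm38, per the authors' deposited tables.

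NMDA and metabotropic glutamate receptor genes held few clusters. Grin1, which encodes the obligate NMDA receptor subunit, had 1 enriched site, chr2:25291586-25291635, listed by all 3 tables with low values of 1.08, 0.87 and 0.73 for Puf60 with exon 5, Puf60 without exon 5 and Rbm38 in the authors' deposited tables. The noncoding gene Grin1os, annotated on the opposite strand, also covers this site, which was given to Grin1 by the strand read from the cluster's start. Leaving out clusters with another gene at their centre removes the site, and with it Grin1 from the genes enriched for all 3 proteins. In the metabotropic group, the enriched Rbm38 clusters were in Grm3 (3.82) and Grm8 (3.24), per the authors' deposited table, and neither gene had an enriched Puf60 cluster.

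The 19 GABA-A receptor genes had 4 of 14, 2 of 14 and 10 of 23 clusters enriched. Gabrg3 was a Puf60 target with the same 2 sites in both isoforms, at 3.83 and 3.78 with exon 5 and at 4.12 and 3.87 without it, per the authors' deposited tables, and with no Rbm38 cluster on its strand. Gabrb1 had 1 site listed in all 3 tables, at 1.47 with exon 5, where it was enriched, and at 0.31 and 0.45 for Puf60 without exon 5 and Rbm38, where it was not, in the authors' deposited tables.

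Neurexin and neuroligin genes had 4 of 6, 6 of 7 and 15 of 25 clusters enriched. Nrxn2, a presynaptic adhesion receptor gene known for its many isoforms, held 3, 6 and 12 of these. Its leading Puf60 site, chr19:6448151-6448250, had 4.82 with exon 5 and 5.40 without it, per the authors' deposited tables, and its leading Rbm38 site, chr19:6469201-6469300, had 3.61. At Nlgn1, a postsynaptic neurexin partner, chr3:25429136-25429185 had 4.88 for Rbm38 against 0.08 with exon 5 and -0.46 without it, per the authors' deposited tables, neither Puf60 value being enriched. Nlgn2, the neuroligin of inhibitory synapses, had a Rbm38 cluster at 4.37 lying 1637 nt from its end and a Puf60 cluster with exon 5 at 4.18 lying 11687 nt from it, in the authors' deposited tables.

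In the release machinery, Rims genes held 45 of 110, 22 of 82 and 26 of 71 clusters enriched, of which Rims2 held 43, 20 and 21. Rims2 clusters were spread over the gene: 1 enriched cluster of each Puf60 isoform and 0 of Rbm38 lay within 2000 nt of its end. The site chr15:39604001-39604050 reached 5.32 with exon 5 and 5.46 without it, per the authors' deposited tables. The highest Rims2 value without exon 5 was 5.68 at chr15:39276751-39276850, and the highest of Rbm38 was 3.61 at chr15:39482251-39482300, in the authors' deposited tables. Many Rims2 clusters were not enriched, with values from -1.89 to 2.16 for Puf60 with exon 5, per the authors' deposited table. The one at 2.16 had a stated p under 0.05 and was left out only by its adjusted p. In Rims3 all 3 proteins were enriched, with 2 of 7, 2 of 7 and 5 of 14 clusters, and no enriched Rbm38 cluster there overlapped an enriched Puf60 cluster.

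Synaptotagmin genes had 15 of 73, 18 of 75 and 34 of 79 clusters enriched. Syt1, the calcium sensor of fast release, had its leading Puf60 clusters deep in the gene, at 4.89 with exon 5 (462285 nt from its end) and 5.17 without exon 5 (279960 nt from its end) in the authors' deposited tables. The leading Rbm38 cluster of Syt1 was 185 nt from the end, at 4.84 in the authors' deposited table, where a noncoding gene of the opposite strand is also annotated. Syt4 showed the same arrangement on a short gene. Both isoforms had their leading Syt4 cluster 8027 nt from the end, at 5.51 with exon 5 and 5.55 without exon 5, whereas the 8 enriched Rbm38 clusters included one 152 nt from the end at 5.29, in the authors' deposited tables. Syt7 had its leading Puf60 site near 22955 nt from the end, at 3.87 with exon 5, and its leading Rbm38 site 4180 nt from the end, at 4.31, in the authors' deposited tables. Syt6 differed, with 7 of 28, 8 of 35 and 8 of 30 clusters enriched and none of the enriched ones within 2000 nt of its end. Syt14 was enriched at 1 place in both isoforms, at 4.24 with exon 5 and 4.14 without it, per the authors' deposited tables, and the 2 Rbm38 clusters on its strand were not enriched.

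Dlg and Shank scaffold genes had 11 of 17, 13 of 25 and 12 of 32 clusters enriched, mostly in Dlg4, which encodes PSD-95. Its leading Puf60 clusters gathered 2034 to 2659 nt before the gene's end with exon 5 and 2059 to 2759 nt without exon 5, with chr11:70043401-70043600 at 4.78 with exon 5 and chr11:70043151-70043250 at 4.91 without it, per the authors' deposited tables. Rbm38 was enriched at 8 of 20 Dlg4 clusters, the leading one at 3.03 lying 15359 nt from the end and the next at 2.80 lying 59 nt from it, in the authors' deposited table. In Dlg2, which encodes PSD-93, 3, 3 and 4 clusters on the gene's strand were enriched, the nearest 408320 nt from its end. Rbm38 also had 10 enriched clusters on the strand opposite to Dlg2, up to 4.72 in the authors' deposited table.

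The Snap genes had 17 of 35, 23 of 47 and 28 of 66 clusters enriched, of which Snap25 held 14, 17 and 20. Its leading Puf60 cluster began at the same base in both isoforms, and ran from 136769451 to 136770050 on chromosome 2 at 5.50 with exon 5 and to 136769800 at 6.04 without it, per the authors' deposited tables. The leading Rbm38 cluster in Snap25 was 102 nt from the end, at 3.47 in the authors' deposited table. In Snap91 a single place, chr9:86766386-86766435, was enriched for all 3 proteins, at 2.32 with exon 5, 1.43 without exon 5 and 5.12 for Rbm38 in the authors' deposited tables. It is 487 nt from the end of Snap91, and the leading Puf60 site of that gene lies 32837 nt from the end, at 5.12 with exon 5 and 3.66 without it, per the authors' deposited tables.

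Syntaxin genes carried more enriched clusters for Rbm38 (42 of 65) than for Puf60 with exon 5 (7 of 15) or without exon 5 (9 of 19). Stx16, a syntaxin of the trans-Golgi network, held 25 of the 42, from 0.53 to 3.85 in the authors' deposited table, and 1 enriched cluster of each Puf60 isoform. Stx1a, a plasma membrane syntaxin of neurons, had 1 Rbm38 cluster, 24 nt from the gene's end at 3.09, and 1 Puf60 cluster with exon 5 that was not enriched, at 0.05, in the authors' deposited tables. In the endosomal syntaxin Stx7, 3 of 3 Rbm38 clusters were enriched, from 2.74 to 4.24 in the authors' deposited table, with no enriched Puf60 cluster. Stx11 showed the opposite, with chr10:12939286-12939385 at 5.31 with exon 5 and 5.44 without exon 5 and the 1 Rbm38 cluster at 0.19, not enriched, in the authors' deposited tables. Stx8 was also a Puf60 target, at 4.36 with exon 5 and 4.79 without it, per the authors' deposited tables, with no Rbm38 cluster listed on its strand.

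Synapsins tether vesicles in the reserve pool, and Syn2 held most of the clusters of this family, with 8 of 19, 3 of 5 and 6 of 8 enriched. Its enriched Rbm38 clusters ran from 2.55 to 3.20 in the authors' deposited table, and all 6 lay 6200 to 8100 nt from the gene's end. The Puf60 sites in Syn2 lay elsewhere, for example chr6:115136151-115136250 at 4.18 with exon 5 and 4.37 without it, per the authors' deposited tables.

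Vamp genes had 4 of 6, 6 of 8 and 7 of 7 clusters enriched, and all 7 Rbm38 clusters were in Vamp2, the main vesicle SNARE of neurons. At Vamp2 the leading Puf60 site, chr11:69090551-69090650, had 4.97 with exon 5 and 4.20 without exon 5, and the leading Rbm38 cluster, chr11:69090701-69091050, had 3.91, in the authors' deposited tables. On their own strands Vamp4 and Vamp5 had Puf60 clusters alone, and Vamp5 held 1 enriched Rbm38 cluster on the opposite strand. The Vamp4 site was at 4.55 with exon 5 and 5.38 without exon 5, and the Vamp5 site at 4.77 and 4.95, in the authors' deposited tables.

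The position of enriched clusters within the gene differed between Rbm38 and Puf60, a pattern that was already known over all genes of these tables when the genes were chosen. Of the enriched Rbm38 clusters, 67 of 192 (34.9%, interval 28.5 to 41.9) lay within 2000 nt of the gene's annotated 3′ end, against 14 of 139 (10.1%, 6.09 to 16.2) for Puf60 with exon 5 and 15 of 125 (12%, 7.41 to 18.9) for Puf60 without exon 5. Among clusters that were not enriched the order was the other way, with 11 of 209 (5.26%) for Rbm38, 24 of 185 (13.0%) for Puf60 with exon 5 and 34 of 186 (18.3%) for Puf60 without exon 5. That order was also the one over all protein-coding genes, where the shares of clusters not enriched were higher, at 10.2%, 29.7% and 34.4%. Over all protein-coding genes, 43.1% of enriched Rbm38 clusters, 15.1% of those of Puf60 with exon 5 and 15.2% of those of Puf60 without exon 5 lay in this window. Both Puf60 intervals held the share of all protein-coding genes. The Rbm38 interval did not. Without Rims2, left out after the data were seen, the Rbm38 share was 39.2% (32.2 to 46.7) of 171 clusters. With the strand from RefSeq alone it was 36.4% (28.0 to 45.7) of 110. Both of these intervals held the 43.1%. They rest on fewer clusters and are wider, but without Rims2 the share itself was also higher. None of the 21 enriched Rbm38 clusters of Rims2 lay in the window. Whether the Rbm38 interval held the background thus depended on this 1 gene. The difference from the background was not tested. Without Rims2 the Puf60 shares were 13.5% with exon 5 and 13.3% without exon 5.

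**Figure D3:**
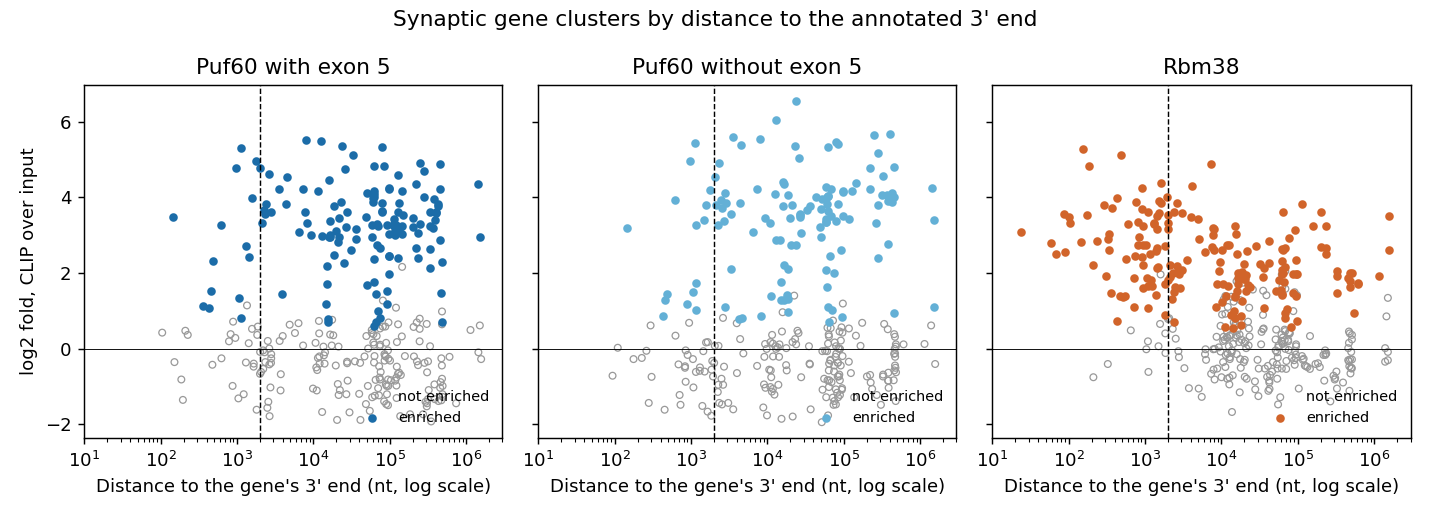
The log2 fold of CLIP over input (y axis, the authors' deposited values) against the distance of the cluster's centre to the gene's annotated 3′ end (x axis, nt, log scale), with a panel per protein, filled points enriched, open points not enriched and a dashed line at 2000 nt. To the left of the line, 67 filled and 11 open points are seen for Rbm38, 14 and 24 for Puf60 with exon 5, and 15 and 34 for Puf60 without exon 5.

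An enriched Rbm38 cluster lay within 2000 nt of the end in 21 of its 37 genes. Over all protein-coding genes of known strand it did so in 3717 of 5075, a higher share. An enriched Puf60 cluster did so in 10 of 33 synaptic genes with exon 5 and 10 of 35 without exon 5. The Puf60 shares of genes over all protein-coding genes are not given here. In the 21 Rbm38 genes, the same windows held 34 listed clusters of Puf60 with exon 5, of which 11 were enriched, and 43 of Puf60 without exon 5, of which 11 were enriched. These shares, 32.4% and 25.6%, stood beside 23.0% and 18.4% in the windows of all 3717 protein-coding genes chosen the same way, so that most Puf60 clusters listed near such ends were not enriched there either.

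Syt4 showed this most fully, with 7 of 8 Rbm38 clusters in the window enriched and values from 1.82 to 5.29 in the authors' deposited table. In the same window of Syt4, 0 of 6 clusters of Puf60 with exon 5 (-0.99 to 0.58) and 0 of 8 of Puf60 without exon 5 (-1.67 to -0.07) were enriched in the authors' deposited tables. The Rbm38 values and the Puf60 values there did not overlap. Syt11 was alike, with 7 of 7 Rbm38 clusters enriched (2.22 to 3.61) and 0 of 2 (-0.37 and 0.47) and 0 of 5 (-0.62 to -0.06) for Puf60 with exon 5 and without it, per the authors' deposited tables. At the end of Stx16, 5 of 6 Rbm38 clusters were enriched, up to 3.85 in the authors' deposited table, and none of the 2 clusters of each Puf60 isoform.

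In other genes the proteins met at the end. In the window of Stx12, an endosomal syntaxin gene, 5 of 5 Rbm38 clusters (2.22 to 3.71), 2 of 2 of Puf60 with exon 5 (0.82 and 3.47) and 2 of 4 of Puf60 without exon 5 (1.02 and 3.20) were enriched in the authors' deposited tables. In Vamp2, whose body of 3854 nt is the shortest of the set, 6 of 6 Rbm38 clusters (1.71 to 3.91) were enriched in the window, as were 2 of 4 clusters of Puf60 with exon 5 (2.43 and 4.97) and 2 of 3 without exon 5 (3.41 and 4.20), in the authors' deposited tables. Stx11 and Vamp5 were the reverse of Syt4. Their single enriched Puf60 sites lay 1118 nt and 961 nt from the gene's end, with no enriched Rbm38 cluster on the strand of either gene.

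**Figure D4:**
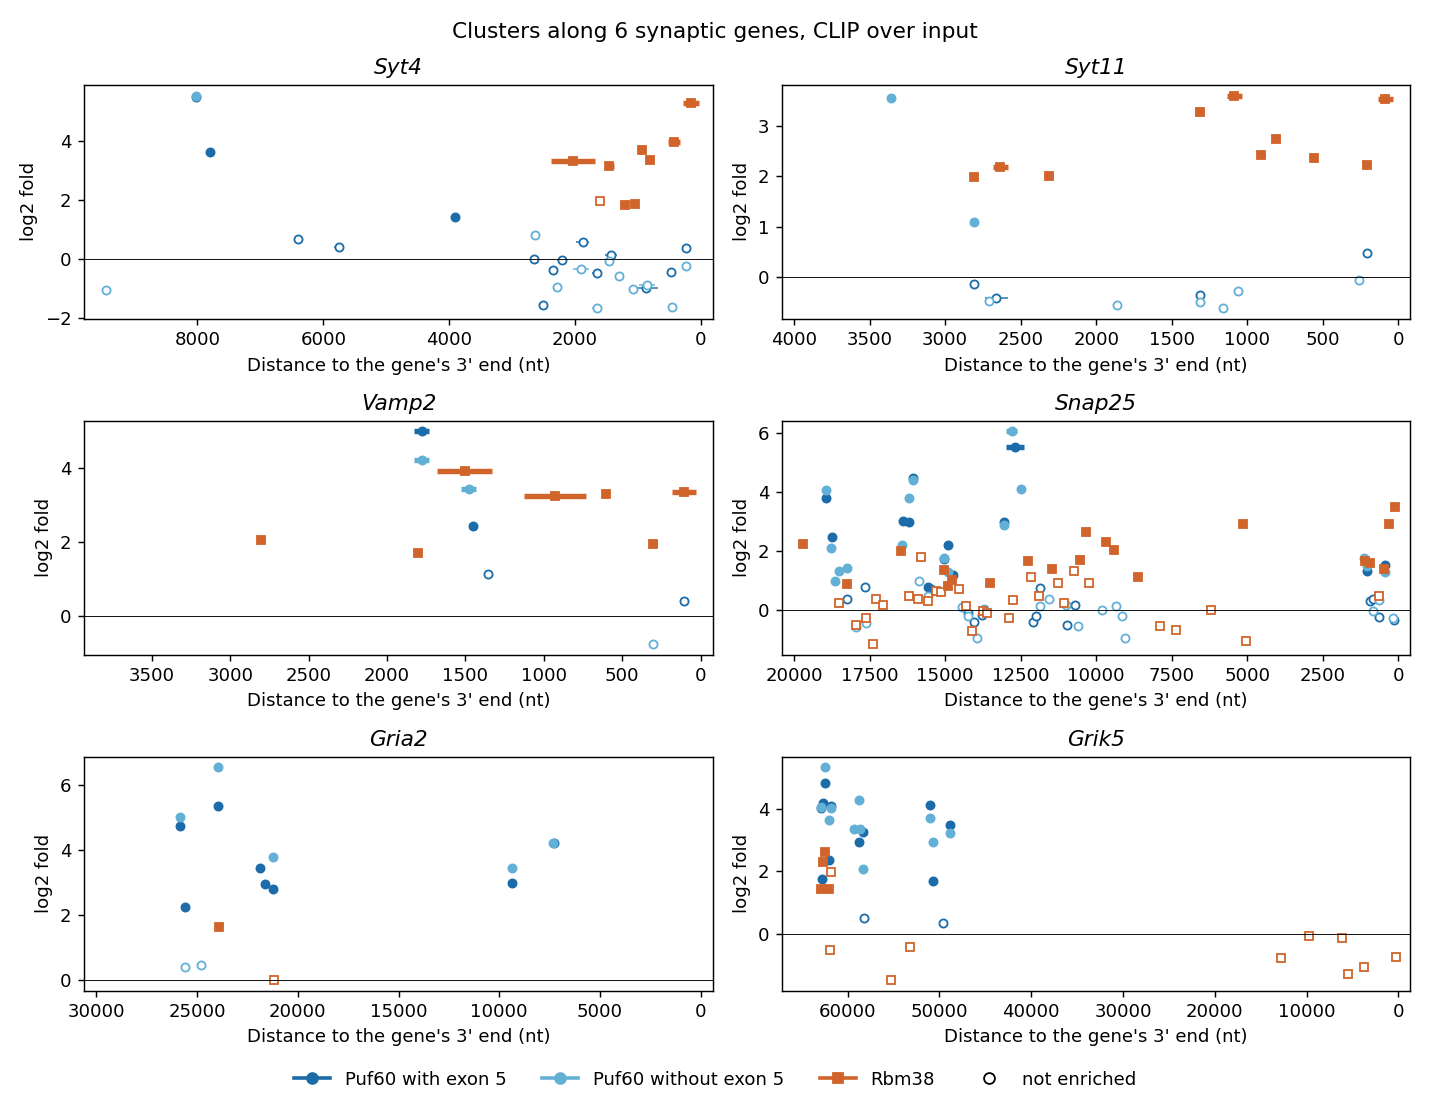
Clusters along 6 genes, the x axis giving the distance to the end of the gene (nt, transcription from left to right, Syt11, Snap25 and Gria2 cut to their last 4000, 20000 and 30000 nt) and the log2 fold of CLIP over input on the y axis (the authors' deposited values). Bars span the clusters and filled symbols are enriched: in Syt4 and Syt11 the Rbm38 symbols near the end lie above the Puf60 symbols there, while in Gria2 and Grik5 the Puf60 clusters lie far from the end.

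Clusters were also compared by site. Of the enriched clusters of Puf60 with exon 5, 82 of 139 (59.0%, interval 50.7 to 66.8) overlapped an enriched cluster of Puf60 without exon 5 by at least 1 nt, and 84 of 125 (67.2%, 58.6 to 74.8) did in the other direction. The same shares over all protein-coding genes were 61.9% and 60.9%. Most of the remainder was not listed in the other table: 36.7% of the clusters with exon 5 and 28.0% of those without exon 5 had no listed counterpart, against 31.0% and 33.3% over all protein-coding genes. Between Puf60 with exon 5 and Rbm38 the overlap was 26 of 139 (18.7%) and 26 of 192 (13.5%) as a share of each list, and between Puf60 without exon 5 and Rbm38 25 of 125 (20.0%) and 25 of 192 (13.0%). Over all protein-coding genes these shares were 20.9%, 10.7%, 18.8% and 10.0% in the same order, so the overlaps with Rbm38 were near the background. No Rbm38 cluster was listed at 74.8% of enriched Puf60 clusters with exon 5 and 72.0% without exon 5. Over all protein-coding genes this was 62.2% and 63.2%. In the other direction, 68.2% of enriched Rbm38 clusters had no listed cluster with exon 5 and 70.8% none without it, against 69.8% and 64.7%.

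Where both Puf60 tables held a cluster at the same place, the isoforms gave similar values. The 139 matched pairs, each the other's largest overlap, comprised 82 enriched in both tables, 6 with exon 5 only, 6 without exon 5 only and 45 in neither. Across these pairs Pearson's r was 0.935 and Spearman's rho 0.904, a description across clusters that share genes and are not independent. For the 94 pairs enriched in at least 1 table, the log2 fold with exon 5 minus that without exon 5 had a median of -0.11 and an SD across pairs of 0.77, from the authors' deposited tables. The value was higher with exon 5 in 40 pairs (42.6%) and higher without exon 5 in 54. Over all 10778 such pairs of the tables, 54.2% were higher with exon 5 and the median difference was 0.07 in the authors' deposited tables. The median difference in the synaptic genes was small beside its spread.

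Differences over 1 on the log2 scale occurred in 20 of the 94 pairs, 6 (6.38%) higher with exon 5 and 14 (14.9%) higher without it, per the authors' deposited tables. Over all 10778 matched pairs with an enriched cluster, the order was the other way, with 9.11% higher with exon 5 and 6.63% higher without it by over 1, and the difference between these orders was not tested. The largest of those higher without exon 5 included sites in Rims2 (chr15:39466001-39466050, 2.67 with exon 5 and 4.22 without), Syt7 (3.87 and 5.36) and Nrxn2 (chr19:6516801-6516850, 2.94 and 4.35), from the authors' deposited tables. In Syt7 the matched clusters differ in length, 50 nt with exon 5 and 100 nt without. The largest of those higher with exon 5 were in Stx16 (chr2:174091501-174091550, 3.32 with exon 5 and 0.87 without), Gria2 (chr3:80707036-80707085, 2.27 and 0.41), Snap91 (5.12 and 3.66) and Grik5 (chr7:25068186-25068235, 3.27 and 2.08), from the authors' deposited tables. Gria2 thus held both a site higher with exon 5 and its leading site, which was higher without exon 5. With 1 value per table, whether these differences exceed the spread between replicates was not tested.

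**Figure D5:**
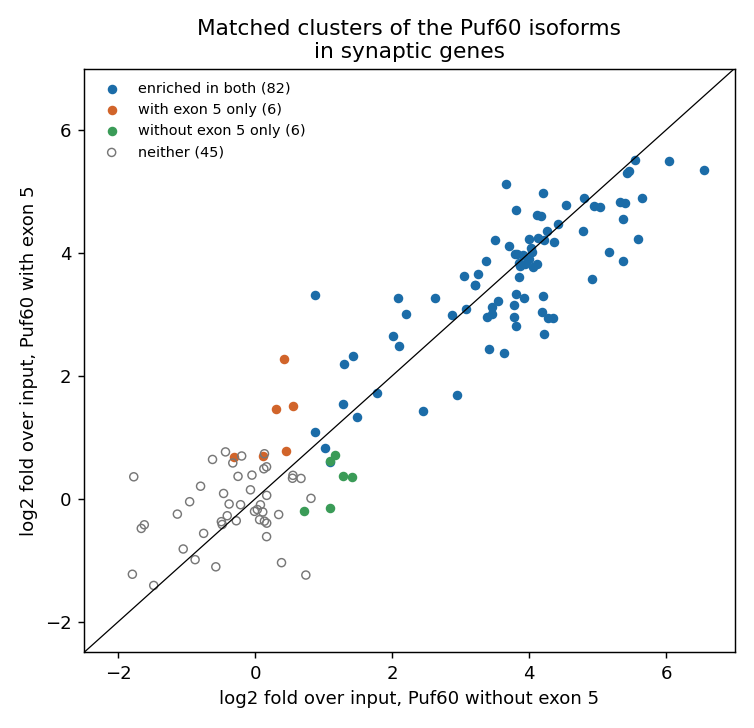
Matched clusters of the Puf60 isoforms in the synaptic genes, with the log2 fold over input without exon 5 on the x axis and with exon 5 on the y axis (the authors' deposited values), colour showing in which table a cluster was enriched, and a line of equality. The 82 pairs enriched in both tables lie along the line, and the point farthest above it among them is that of Stx16 (3.32 against 0.87).

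Clusters also lay on the strand opposite to the gene, 27, 27 and 29 in the 3 tables, of which 10, 11 and 24 were enriched. Dlg2 alone held 11, 14 and 12 of these clusters, of which 1, 2 and 10 were enriched. Of the clusters in 1 gene alone, 7.58%, 7.93% and 6.44% were on the opposite strand in the synaptic genes, against 5.25%, 4.99% and 4.61% over all protein-coding genes. A large part of the share in the synaptic genes thus came from 1 long gene. The highest, chosen after its value was seen, was in Nlgn1 at chr3:25431701-25431750 on the plus strand, at 6.36 for Rbm38 in the authors' deposited table, above every Rbm38 value on the strand of these genes. At the same place Puf60 with exon 5 had 1.03 in the authors' deposited table, also enriched. In Gabra2, chr5:70960901-70960950 on the strand opposite to the gene had 4.40 with exon 5 and 4.96 without it, per the authors' deposited tables, and neither isoform had a cluster on the gene's own strand. Of the opposite-strand clusters, 3, 5 and 7 overlapped a cluster of the gene's strand in the same table. Among these, Stx4a had clusters of both strands in the Rbm38 table, overlapping at chr7:127848986-127849000, at 3.52 on its strand and 2.03 on the other in the authors' deposited table.

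The 23 genes of unknown strand are not in the counts above. Of these, 12 held clusters and 11 held an enriched one, among them Syt17 at chr7:118443186-118443285, with 5.70 with exon 5 and 5.19 without exon 5, and Grin2a with 4.68 for Rbm38, in the authors' deposited tables. Both were chosen for their height after the values were seen.

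Other genes of the synapse, a list of 98 that includes vesicle priming, docking, auxiliary receptor and transporter genes, is given for comparison. Of its 80 genes of known strand, 29 (36.2%), 27 (33.8%) and 31 (38.8%) held an enriched cluster of Puf60 with exon 5, Puf60 without exon 5 and Rbm38. Their enriched clusters had medians of 3.21, 3.30 and 2.32 in the authors' deposited tables. Unc13a, which primes vesicles for fusion, led this list with 20, 25 and 19 enriched clusters.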

How the data were processed

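Per the file headers, each of the 3 deposited tables gives a log2 fold change, a p-value and an FDR for every genomic cluster. The deposited log2 values were read as CLIP over input. The submitters' processing notes name TopHat, edgeR, mm10 and NCBIM37, with no role. Cluster calling, the treatment of duplicate reads and the model behind the fold are not stated in the labels or headers. The planned count test was not run, since the tables hold comparisons only.

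A start that is a multiple of 50 nt was read as the plus strand and an offset of 35 as the minus strand. Gene bodies and promoter bases came from RefSeq GRCm38.p6. Where RefSeq gave no strand, it was inferred where at least 3 separate places in 1 gene alone held clusters and 80% shared a strand, which equalled the RefSeq strand in 99.2% of 3188 genes. A first rule, which counted clusters pooled over the tables, equalled it in 95.4% of 3689 genes and was replaced after the data were examined. A missing adjusted p was taken as not enriched.

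Members, lists and tests were chosen with earlier results of these data known. Genes named by rule were, per table, the 8 with the most enriched clusters and the 8 with the highest log2 fold at an enriched cluster; the 4 largest isoform differences in each direction, 1 per gene; members enriched in all 3 tables; and the member with the most listed clusters in each role group. Gene names beyond that rule were added after their values were seen. A few genes within the rule are not reported here. Alternatives changed the threshold, strand, overlap and window. Python 3.11.15, pandas 2.3.3, numpy 2.4.6 and scipy 1.17.1 were used, and the scripts were tested on simulated data. Exons and splice sites were not analysed here.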

Additional observations from a re-analysis of the deposited data

How the results depend on the processing

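Under the planned settings for the threshold, strand and overlapping genes, the enriched counts in the synaptic genes ranged from 131 to 157 for Puf60 with exon 5, 117 to 143 for Puf60 without exon 5 and 177 to 232 for Rbm38. With the RefSeq strand alone, an alternative added after seeing the data, they were 70, 73 and 110, because fewer genes were counted. Requiring an overlap of 50% of both clusters lowered the overlap between Puf60 with exon 5 and Rbm38 to 12.9% and 9.38% of each list. Between Puf60 without exon 5 and Rbm38 it fell likewise, to 14.4% and 9.38%, though these stayed within the main intervals. The share of clusters near the 3′ end moved with the window, by construction. At 1000 nt it was 5.04%, 5.6% and 21.9% of enriched and 7.03%, 10.2% and 1.44% of other clusters for Puf60 with exon 5, Puf60 without exon 5 and Rbm38. At 5000 nt it was 18.0%, 25.6% and 46.9% of enriched clusters, and 24.9% and 27.4% of the other clusters of Puf60 with and without exon 5. Without Rims2, also added after seeing the data, the other clusters of Puf60 without exon 5 came to 26.0%. Over the alternatives run, 57 values kept near the main value and 17 moved, all of the latter given here. A share was near if it lay in the main interval, and a count if it lay within a set factor of the main count. The isoform median was near if it moved by less than the SD across pairs. These rules were loose: the fall from 139 to 96 enriched clusters of Puf60 with exon 5 without Rims2 was called near. The first strand rule, added likewise, moved none of the counts and shares it was run on. No paired analysis was possible because the tables hold no values per library, and leaving out each replicate and a replicate block were not run for the same reason. The depth behind each cluster is unknown.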
